A study of Mus musculus with 34 samples.

Results

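The first rectal challenge of the recurrent TNBS (2,4,6-trinitrobenzene sulfonic acid) colitis model was examined in 5 mice killed on day 9, labelled TNBS colitis day 9, against 4 mice labelled Healthy Control. These 9 arrays are of 34 in the series, which also holds 5 mice on each of 5 later days, and all of the 21110 probes with a value above log2(5) in at least 4 of the 34 arrays were compared. Day 9 mice had been sensitised through the skin on day 0 and given 0.75 mg TNBS rectally on day 7, so the colon was taken 2 days after the dose. All mice were female BALB/c, 8 weeks old, and total RNA of the distal colon went to 1 single-colour Illumina mouse bead array per mouse. Whether the healthy mice received the skin application, the ethanol in which TNBS is given or the rectal procedure is not stated in the sources used here, so TNBS, ethanol and the procedure cannot be told apart. Days 14, 16 and 23, with 5 mice each, are used beside day 9. Day 14 followed the same dose by 7 days, and days 16 and 23 followed later, larger doses by 2 days.

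TNBS couples to proteins of the gut wall and makes them visible to T cells of a sensitised mouse, while the ethanol opens the epithelial barrier. In the first days after such a dose the injured colon is known to call in neutrophils and monocytes through chemokines, to switch on the interleukin-1 and interleukin-6 pathways and to begin to close the wound. The plasma cells, mast cells and absorptive epithelium of the resting mucosa form the background against which this takes place.

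Values are log2 normalized intensities, in which a difference of 1 is a doubling, and values under a linear 5 were set to 5 (2.32 on the log2 scale). Background was judged from 1323 probes for chemosensory receptors (olfactory, vomeronasal, trace amine), genes not known from colon, and a signal counted as above background beyond their 95th percentile in that mouse, which lay between 22.3 and 30.5 on the linear scale. Of 22 tested genes of absorptive colonocytes, 20 were above background in at least 3 day 9 mice and 21 in at least 3 healthy mice, and of 15 smooth muscle genes 11 and 12 were. Across probes, arrays correlated at r = 0.931 to 0.943 among day 9 mice and 0.944 to 0.951 among healthy mice, and the median SD of a probe was 0.361 in day 9 mice and 0.291 in healthy mice. Genes of skeletal muscle averaged 9.38, 8.49 and 10.33 in day 9 mice 2, 3 and 5 and 4.43 and 3.78 in mice 1 and 4, against 3.86 to 4.42 in healthy mice. Results are therefore given below also for a fit without the 5 arrays of the series that carried these markers. That fit was added once the values were known and leaves 2 of the 5 day 9 mice.

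On day 9, 251 probes (1.19%) were higher and 172 (0.815%) were lower than in healthy mice by limma with Benjamini-Hochberg adjustment at 0.05. With each gene represented by its brightest probe, 193 of 14010 genes (1.38%) rose and 118 (0.842%) fell, and the median log2 change over all genes was -0.019. Probes that rose changed by a median of 1.27 and 70 of them by more than 4-fold, whereas those that fell had a median of -0.69 and 3 passed 4-fold. All 5 day 9 mice lay above all 4 healthy mice for 379 genes (2.71%) and below them for 369 (2.63%), whether called or not. Of the probes that rose, 166 were above background in all 4 healthy mice and 52 in none of them. Of the probes that fell, 149 were above background in all 5 day 9 mice. Cyclic loess normalization moved the split, with 69.6% of called probes higher against 59.3% without it. Without the arrays with skeletal muscle markers 96 probes were higher, 68 of them among the 251, and 58 lower, 31 of them among the 172. Of the 85 named genes past the test, 33 passed it in that fit. In the reverse fit, with mice 2, 3 and 5 as the only day 9 mice, 59 passed it. A fit of the 9 arrays alone, with no spread borrowed from the other days, called 19 probes higher and 11 lower.

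**Figure D1:**
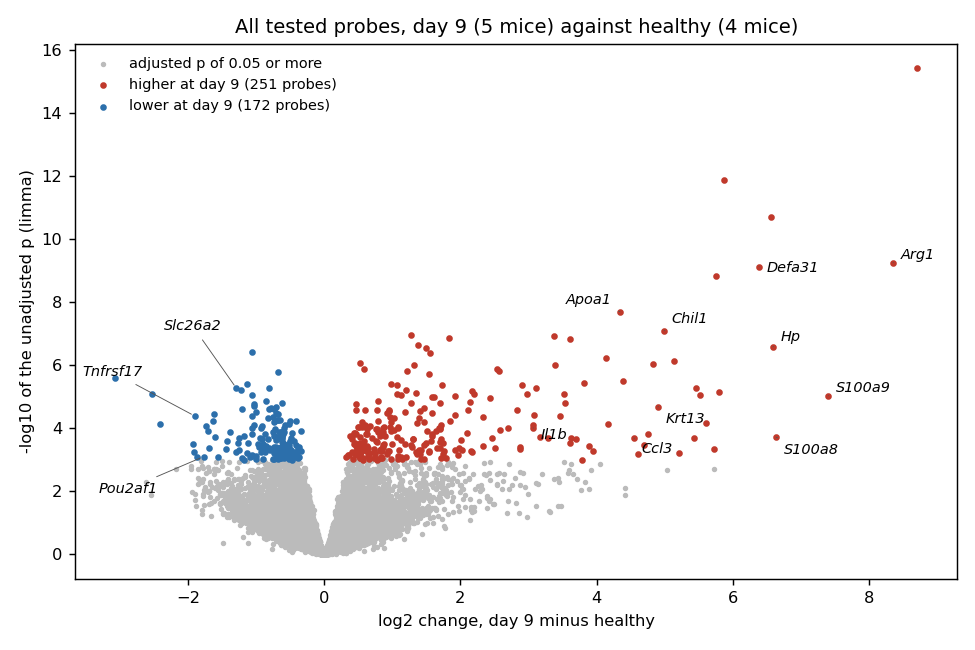
Each point is 1 of the 21110 tested probes, with the log2 change (day 9 minus healthy) on the horizontal axis and -log10 of the unadjusted limma p on the vertical axis; red points were higher and blue points lower at an adjusted p under 0.05. The red points spread out to a log2 change of 8.71, while 3 blue points lie below -2.

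Arg1 (chromosome 10) encodes arginase 1, an enzyme of alternatively activated macrophages that breaks down arginine. It read 10.91, 9.99, 11.004, 9.36 and 12.12 in the 5 day 9 mice, against the floor in all 4 healthy mice. Arg1 was thus at least 63.9-fold higher (adjusted p = 2.9e-06) and above background in every day 9 mouse and in no healthy mouse. Of 10 tested genes listed for alternative activation 4 rose and none fell, with a median of 1.28. The 4 were Arg1, Chil1, Chil3 and Retnlb, of which Retnlb is also on the goblet cell list. The chitinase-like gene Chil1, a gut injury marker, had 7.05, 7.28, 9.53, 7.65 and 7.25 in day 9 mice, against 3.43, 2.96, 2.32 and 2.32 in healthy mice, at least 8.41-fold higher (adjusted p = 2.1e-04). Mouse 3 stood apart at the top for this gene. The macrophage and neutrophil lectin gene Chil3 divided the day 9 mice, with 9.61, 9.06 and 10.35 in mice 1, 3 and 5 but 2.32 and 4.38 in mice 2 and 4. It was above background in those 3 mice and in no healthy mouse, and at least 4.01-fold higher (adjusted p = 0.039, and 0.12 without the arrays with skeletal muscle markers). Retnlb, a goblet cell product with antibacterial action, rose by 2.17 (adjusted p = 0.035) and overlapped between the groups, since healthy mouse 3 reached 13.10. Arg1, Chil1 and Retnlb remained past the test without the arrays with skeletal muscle markers. Retnlb did not pass it with mice 2, 3 and 5 as the only day 9 mice (1.48, adjusted p = 0.26). Nos2, the inducible nitric oxide synthase of classically activated macrophages, had a log2 change of 0.24 (adjusted p = 0.93). The general monocyte and macrophage list moved less, with 0 of 14 genes past limma's adjusted test (8 at an unadjusted p under 0.05), a median of 0.75 and the largest change in Clec7a, the beta-glucan receptor dectin-1 (2.92, adjusted p = 0.080).

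The neutrophil list held 14 tested genes, of which 4 rose and none fell, with a median change of 2.75 (2.11 with bounds in place of fitted values). S100a9 and S100a8 (chromosome 3) encode the 2 subunits of calprotectin, an abundant cytosolic protein of neutrophils. S100a9 had 8.51, 10.89, 11.69, 10.55 and 12.43 in day 9 mice, against 2.32, 5.40, 2.32 and 3.60 in healthy mice (log2 change 7.40, SE 1.38, adjusted p = 0.0034). S100a8 had 8.31, 11.59, 12.85, 11.82 and 12.57 in day 9 mice, against 3.78, 5.87, 4.50 and 5.01 in healthy mice (log2 change 6.64, adjusted p = 0.021). The groups did not overlap for either gene, and day 9 mouse 1 was the lowest of its group for both. Mmp9, a gelatinase stored in neutrophil granules, was 8.32 ± 0.84 at day 9 (SD, n = 5) and 4.94 ± 0.19 in healthy mice (SD, n = 4; adjusted p = 2.5e-04). Retnlg, a resistin-like gene of neutrophils, was at least 2.38-fold higher (adjusted p = 0.027). Granule genes of neutrophil precursors had log2 changes of -0.22 for Elane, 0.08 for Ngp and 0.10 for Camp, and none of the 3 passed the test. Lcn2, which neutrophils and stressed epithelium both make, had a log2 change of 3.77 with an adjusted p of 0.15. In whole tissue, more cells of a type and more RNA per cell cannot be told apart. Without the arrays with skeletal muscle markers, Mmp9 alone of the 4 passed the test, with S100a9 at 6.12 (adjusted p = 0.13) and S100a8 at 5.28 (adjusted p = 0.26) on the log2 scale.

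**Figure D2:**
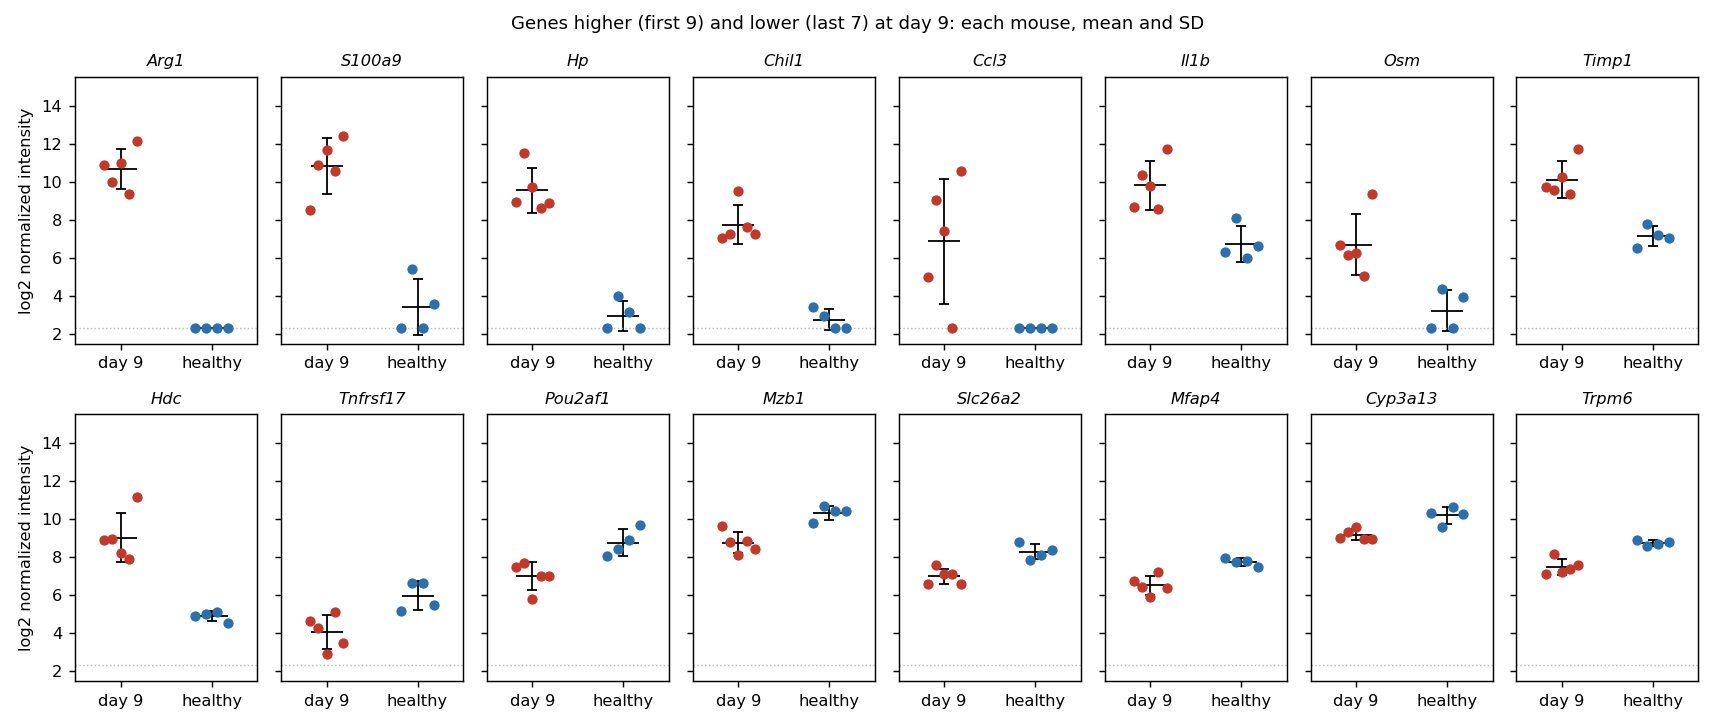
Log2 normalized intensity of 16 genes, with a point per mouse (day 9, red, left; healthy, blue, right), black bars for mean and SD, and the dotted line at the floor of 2.32. The first 9 genes were higher and the last 7 lower at day 9. Arg1 and Ccl3 sit at the floor in all 4 healthy mice, and for Ccl3 day 9 mouse 4 is there too.

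Of the chemokines, 5 of 18 CC genes and 2 of 13 CXC genes rose and none fell, with list medians of 0.46 and 0.36. Most of the CC members that rose, Ccl3, Ccl4, Ccl7 and Ccl9, lie on chromosome 11, as does Ccl2, which did not pass the test. Ccl7, which attracts monocytes, had 9.52, 8.05, 9.72, 7.64 and 10.62 in day 9 mice, against 4.65, 6.72, 5.17 and 5.48 in healthy mice (log2 change 3.61, SE 0.52, adjusted p = 2.5e-04), with no overlap. Ccl4 had 8.42, 9.96, 8.98, 6.66 and 12.54 in day 9 mice, against 5.64, 6.41, 4.60 and 4.79 in healthy mice (log2 change 3.95, adjusted p = 0.035). Ccl3, like Ccl4 a macrophage inflammatory protein, was more uneven. It read 5.01, 9.02, 7.43, 2.32 and 10.59 in day 9 mice and 2.32 in all healthy mice, at least 4.12-fold higher on average (adjusted p = 0.022). The eosinophil attractant Ccl24 rose by 2.87 (adjusted p = 0.032) and Ccl9 by 1.41 (adjusted p = 0.0072). The monocyte attractant Ccl2 had a log2 change of 2.72 and an adjusted p of 0.057. Ccl5, a T cell attractant, had -1.05 (adjusted p = 0.43).

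Cxcl1, a main neutrophil attractant of mice, had 7.68, 8.81, 9.24, 7.86 and 11.13 in day 9 mice, against 5.01, 6.95, 5.14 and 4.54 in healthy mice (log2 change 3.53, SE 0.68, adjusted p = 0.0051). The platelet chemokine gene Pf4 rose by 1.54 (adjusted p = 0.035). Cxcl2 followed the mice with skeletal muscle markers, at 7.58, 6.65 and 9.63 in mice 2, 3 and 5 and at the floor in mice 1 and 4 and in every healthy mouse (log2 change 3.38, adjusted p = 0.10). The interferon-induced Cxcl9 stood at a log2 change of 0.24 (adjusted p = 0.97) and Cxcl10 at 1.23 (adjusted p = 0.52), and 0 of 19 interferon response genes passed the test (2 at an unadjusted p under 0.05 by limma), with a median of 0.50. Ccl7 and Ccl24 remained past the test without the arrays with skeletal muscle markers, with log2 changes of 3.08 and 3.68. The calls of the other members that rose were lost there, at log2 changes of 1.22 for Ccl9 (adjusted p = 0.088), 1.34 for Ccl3 (adjusted p = 0.65), 2.18 for Ccl4 (adjusted p = 0.44), 2.36 for Cxcl1 (adjusted p = 0.19) and 0.80 for Pf4 (adjusted p = 0.40). Ccl24 did not pass the test with mice 2, 3 and 5 as the only day 9 mice (2.33, adjusted p = 0.16).

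Cxcl1 is a known target of NF-kappa B, and its promoter is shown because the gene carries the neutrophil attractant result. In the 250 bases before its RefSeq start (GRCm38.p6, chr5:90890995-90891244, plus strand) the NF-kappa B consensus matched at 71 and 70 bases upstream, a pair of overlapping matches on opposite strands that the capitals mark.
Cxcl1: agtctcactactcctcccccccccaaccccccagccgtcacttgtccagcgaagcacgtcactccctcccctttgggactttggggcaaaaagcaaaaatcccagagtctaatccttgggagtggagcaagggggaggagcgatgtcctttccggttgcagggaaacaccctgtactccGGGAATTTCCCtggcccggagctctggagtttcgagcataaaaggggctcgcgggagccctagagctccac
A match on either strand was found in 12 of 154 genes that rose (7.79%), 7 of 93 that fell (7.53%) and 484 of all 11250 tested genes with a promoter in the table (4.30%). It describes the letters only.

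Interleukin-1 and interleukin-6 family genes rose in part. Il1b, the interleukin-1 beta gene of myeloid cells, had 8.69, 10.36, 9.78, 8.58 and 11.70 in day 9 mice, against 6.29, 8.12, 5.97 and 6.62 in healthy mice, with no overlap (log2 change 3.07, SE 0.68, adjusted p = 0.015). The alarmin gene Il33 rose by 1.37 (adjusted p = 0.038). They were the 2 of 11 tested interleukin-1 family genes past the test, while Il1r2, the decoy receptor, had 3.52 (adjusted p = 0.054) and Il1a 2.37 (adjusted p = 0.084). Of 13 genes of the interleukin-6 family and STAT3, 5 rose and none fell, with a median of 0.77. The cytokine gene Osm, which encodes oncostatin M, read 6.69, 6.14, 6.27, 5.04 and 9.36 in day 9 mice, against 2.32, 4.35, 2.32 and 3.93 in healthy mice. By this probe Osm was at least 4.06-fold higher (adjusted p = 0.0089), while a second probe of Osm did not pass the test. Its receptor gene Osmr rose by 0.77 (adjusted p = 0.015). The nuclear members were among the steadiest of the list, with Bcl3 at 8.35 ± 0.31 (SD, n = 5) at day 9 and 6.97 ± 0.53 (SD, n = 4) in healthy mice (adjusted p = 3.6e-04) and Cebpb at 10.77 ± 0.42 at day 9 and 9.50 ± 0.10 in healthy mice (adjusted p = 2.5e-04). Socs3, the feedback inhibitor that STAT3 switches on, rose by 1.59 (adjusted p = 0.018). Il6 itself was above background in 1 day 9 mouse, mouse 5 at 6.45, and in no healthy mouse (log2 change 1.46, adjusted p = 0.20).

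In the same mice, 1 of 14 genes of TNF and NF-kappa B feedback rose, Tnfaip2 (1.10, adjusted p = 0.035), and the list had a median of -0.007. Tnf had 5.86, 5.80, 5.41, 6.61 and 6.45 in day 9 mice, against 2.72, 5.47, 4.55 and 2.32 in healthy mice (log2 change 2.26, adjusted p = 0.13). Only healthy mouse 2 overlapped with the day 9 mice. Bcl3, Cebpb and Tnfaip2 held without the arrays with skeletal muscle markers (adjusted p = 0.0078, 0.0074 and 0.023), whereas Il1b had a log2 change of 1.88 (adjusted p = 0.30), Il33 of 0.93 (adjusted p = 0.37), Osm of 2.64 (adjusted p = 0.12) and Socs3 an adjusted p of 0.14 there. Tnfaip2 did not hold with mice 2, 3 and 5 as the only day 9 mice (0.79, adjusted p = 0.22).

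The Socs3 promoter is shown as the example of the interleukin-6 family and STAT3 genes (GRCm38.p6, chr11:117969367-117969616, minus strand, read along the gene). Capitals mark the match to the STAT motif TTCNNNGAA, which begins 154 bases upstream of the RefSeq start.
Socs3: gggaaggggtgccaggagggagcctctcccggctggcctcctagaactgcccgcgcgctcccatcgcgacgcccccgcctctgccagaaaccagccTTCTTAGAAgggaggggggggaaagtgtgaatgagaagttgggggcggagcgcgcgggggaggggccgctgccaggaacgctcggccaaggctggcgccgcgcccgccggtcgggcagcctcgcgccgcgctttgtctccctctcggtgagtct
The motif, read on both strands, stood in 9 of 154 genes that rose (5.84%), 3 of 93 that fell (3.23%) and 725 of 11250 tested genes (6.44%).

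Acute phase genes and genes of lipid mediators changed unevenly. Hp, which encodes the haemoglobin-binding acute phase protein haptoglobin, had 8.96, 11.53, 9.74, 8.63 and 8.87 in day 9 mice, against 2.32, 3.98, 3.18 and 2.32 in healthy mice. It was at least 29.2-fold higher (adjusted p = 3.9e-04), and its 3 probes agreed. The protease inhibitor gene Serpina3n rose by 2.53 (adjusted p = 0.0011) and Lrg1, a glycoprotein gene of inflamed vessels and neutrophils, by 2.46 (adjusted p = 0.022). These were 3 of 14 acute phase genes. The serum amyloid genes differed among themselves, with 3.44 for Saa3 (adjusted p = 0.095) and -0.24 for both Saa1 (adjusted p = 0.80) and Saa2 (adjusted p = 0.81). Of 13 prostaglandin and leukotriene genes 3 rose, namely Alox5ap, which feeds leukotriene synthesis (1.32, adjusted p = 9.2e-04), the thromboxane synthase gene Tbxas1 (1.18, adjusted p = 0.028) and the prostacyclin synthase gene Ptgis (0.74, adjusted p = 0.047). Hp (adjusted p = 0.017) and Serpina3n (2.43, adjusted p = 0.017) remained past the test without the arrays with skeletal muscle markers. Lrg1 (1.76, adjusted p = 0.30), Alox5ap (1.12, adjusted p = 0.052), Tbxas1 (1.40, adjusted p = 0.088) and Ptgis (0.64, adjusted p = 0.23) did not pass it there.

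Hdc, the gene of the enzyme that makes histamine, was the 1 of 13 tested mast cell genes that rose. It had 8.93, 8.97, 8.20, 7.92 and 11.16 in day 9 mice, against 4.92, 5.02, 5.11 and 4.55 in healthy mice (log2 change 4.14, SE 0.65, adjusted p = 7.1e-04), with no overlap. Mast cell genes that did not pass the test include the carboxypeptidase gene Cpa3 (0.27, adjusted p = 0.90) and the protease gene Mcpt1 (1.25, adjusted p = 0.46). Likewise Rnase2a, an eosinophil ribonuclease gene, rose by 4.17 (adjusted p = 0.013), with mouse 2 at 4.81 and the other day 9 mice at 8.83 to 11.01. The 5 other eosinophil genes, including Epx and Prg2, had log2 changes between -0.35 and 0.15. Hdc (3.52, adjusted p = 0.018) and Rnase2a (5.25, adjusted p = 0.0043) held without the arrays with skeletal muscle markers. Rnase2a did not hold with mice 2, 3 and 5 as the only day 9 mice (3.45, adjusted p = 0.083).

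Matrix and wound genes rose in small numbers. Timp1, the inhibitor of matrix metalloproteinases, had 9.71, 9.58, 10.24, 9.35 and 11.72 in day 9 mice, against 6.52, 7.77, 7.22 and 7.07 in healthy mice (log2 change 2.97, SE 0.55, adjusted p = 0.0034), and its 2 probes agreed. Timp1, Mmp9 and the aggrecanase gene Adamts4 (2.16, adjusted p = 0.0031) were 3 of 16 protease and inhibitor genes past the test. Among matricellular genes 3 of 15 rose, the hyaluronan synthase gene Has1 (at least 3.62-fold, adjusted p = 0.015), the activin subunit gene Inhba (1.69, adjusted p = 0.015) and Ccn1 (1.57, adjusted p = 0.025). Of 16 genes of collagens and fibrillar matrix (median 0.43), 1 was higher, the crosslinking enzyme gene Lox (1.68, adjusted p = 0.015), and 1 was lower, Mfap4. Mfap4, a protein of elastic fibres, had 6.73, 6.43, 5.88, 7.22 and 6.37 in day 9 mice, against 7.97, 7.72, 7.81 and 7.46 in healthy mice (log2 change -1.21, adjusted p = 0.0068). The epithelial wound list had 4 of 15 genes higher. Anxa8, an annexin gene, was at 9.55 ± 0.29 at day 9 (SD, n = 5) and 8.05 ± 0.35 in healthy mice (SD, n = 4; adjusted p = 4.0e-04), and the others were Sprr1a, Il33 and Phlda1 (1.07, adjusted p = 0.0024). Without the arrays with skeletal muscle markers Mmp9 (3.23, adjusted p = 0.018), Anxa8 (1.48, adjusted p = 0.017) and Sprr1a (1.94, adjusted p = 0.035) held. The other calls of these lists were lost there, at adjusted p of 0.11 for Timp1, 0.097 for Adamts4, 0.16 for Has1 and for Inhba, 0.30 for Ccn1, 0.20 for Lox, 0.25 for Mfap4, 0.37 for Il33 and 0.082 for Phlda1. Sprr1a did not hold with mice 2, 3 and 5 as the only day 9 mice (1.28, adjusted p = 0.17).

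Alpha-defensins, the antimicrobial peptides of small-intestinal Paneth cells, were among the genes that rose most, although Paneth cells are not known from normal mouse colon. Defa31 had 11.33, 11.03, 9.67, 12.45 and 6.45 in day 9 mice, against 3.59, 4.56, 4.07 and 2.98 in healthy mice, at least 45.5-fold higher (adjusted p = 3.1e-06). Defa20 had 9.25, 8.99, 7.90, 10.68 and 3.79 in day 9 mice and Defa26 had 8.16, 7.99, 6.68, 9.54 and 3.34, against the floor in all 4 healthy mice for both, at least 10.9-fold (adjusted p = 0.0033) and 5.52-fold (adjusted p = 9.2e-04) higher. Mouse 4 was the highest and mouse 5 the lowest for all 3 genes. These were the 3 of 9 tested Paneth cell genes that rose. Lyz1, the Paneth cell lysozyme, had a log2 change of -0.10 (adjusted p = 0.88), the ribonuclease gene Ang4 2.44 (adjusted p = 0.20), and Defa21 and Defa22 0.15 and 0.07. Alpha-defensin genes are near copies of each other, so the signal of a probe may belong to other members of the family, and a second probe for Defa20 was above background in no mouse.

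The same highest and lowest mice appeared in some other probes. Of 21 probes that rose and have no gene name in the annotation used here, 10 were above background in no healthy mouse, and 8 of these had mouse 4 highest and mouse 5 lowest. They include the probe with the largest change of all, ILMN_1231270, at 11.87, 11.92, 10.75, 13.10 and 7.52 in day 9 mice and at the floor in healthy mice, which was picked out after its values were seen. Among named probes that rose, 9 of 230 had that order, the 3 defensin genes included, so it was not general among the probes that rose. Apoa1, the apolipoprotein gene of enterocytes and liver, had 8.47, 7.90, 5.26, 8.83 and 4.51 in day 9 mice, against 2.32, 3.12, 2.32 and 2.83 in healthy mice, at least 4.97-fold higher (adjusted p = 6.0e-05). A list of 25 genes of small-intestinal enterocytes was therefore added after the values were seen. Of its 17 tested members 4 rose, namely Apoa1, the sucrase-isomaltase gene Sis (adjusted p = 0.034), the ileal bile acid binding protein gene Fabp6 (1.69, adjusted p = 0.015) and the peptidase gene Naaladl1 (adjusted p = 0.030), and the glucose transporter gene Slc5a1 fell by 0.67. Sis was above background in 3 day 9 mice and Naaladl1 in 2, and neither in any healthy mouse, and their bounds are under 1, so no fold is given. The list's median was -0.094, and its mean level was 6.12, 6.02, 5.12, 6.34 and 5.23 in the 5 day 9 mice and 5.10 to 5.46 in healthy mice. Its ileal bile acid transporter gene Slc10a2 was at the floor in all 5 day 9 mice. It was above background in no healthy mouse either, so this probe cannot set the groups apart. The part of small-intestinal tissue in these results was not tested. All 3 defensin genes and Apoa1 remained past the test without the arrays with skeletal muscle markers.

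The promoters of Defa31 and Defa20 are shown since these genes ranked the day 9 mice in the same order. On later days they parted. Defa20 averaged 5.17, 4.58 and 5.01 on days 14, 16 and 23, against 2.32 in healthy mice. Defa31 averaged 2.48, 2.57 and 3.09 on those days, against 3.80 in healthy mice. Capitals mark ATCAAAG, a motif of TCF factors of the Wnt pathway, which is known to act on Paneth cell genes. It begins 114 and 74 bases upstream of the RefSeq start in Defa31 (GRCm38.p6, chr8:21191323-21191572, plus strand) and 112 and 72 bases upstream in Defa20 (chr8:21509008-21509257, plus strand).
Defa31: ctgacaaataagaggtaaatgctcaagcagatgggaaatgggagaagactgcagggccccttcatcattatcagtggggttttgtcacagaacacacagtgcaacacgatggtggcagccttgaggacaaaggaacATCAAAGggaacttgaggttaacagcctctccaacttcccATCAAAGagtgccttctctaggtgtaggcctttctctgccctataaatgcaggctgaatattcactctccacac
Defa20: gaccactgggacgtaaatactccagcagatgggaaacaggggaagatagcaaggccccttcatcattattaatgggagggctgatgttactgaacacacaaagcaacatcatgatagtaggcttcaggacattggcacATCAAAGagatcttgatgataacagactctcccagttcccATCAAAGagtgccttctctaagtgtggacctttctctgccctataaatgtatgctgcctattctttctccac
The TCF motif, on either strand, stood in 13 of 16 alpha-defensin genes of the table, 9 of which had it at least 2 times, and in 312 of 11250 tested genes (2.77%), 8 of 154 that rose (5.19%) and 2 of 93 that fell (2.15%).

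Other epithelial antimicrobials moved unevenly. Reg3b, a lectin that kills Gram-positive and some Gram-negative bacteria, had 9.65, 10.03, 10.52, 10.50 and 5.72 in day 9 mice, against 2.32, 3.67, 5.94 and 2.32 in healthy mice (log2 change 5.72, adjusted p = 0.034). Mouse 5 fell within the healthy range, and a second probe of Reg3b did not pass the test. Its neighbour Reg3g had the same shape, with 5.66, 6.19, 6.46, 6.55 and 2.32 in day 9 mice, against 2.32 in 3 healthy mice and 3.97 in mouse 4 (log2 change 2.71, adjusted p = 0.22). The secreted protease inhibitor gene Slpi rose by 2.10 (adjusted p = 0.018), and Reg4 had a log2 change of 0.52 (adjusted p = 0.67). Thus 2 of 14 genes of this list passed the test, with a median of 0.38, and neither did without the arrays with skeletal muscle markers (adjusted p = 0.11 for Reg3b and 0.14 for Slpi).

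**Figure D3:**
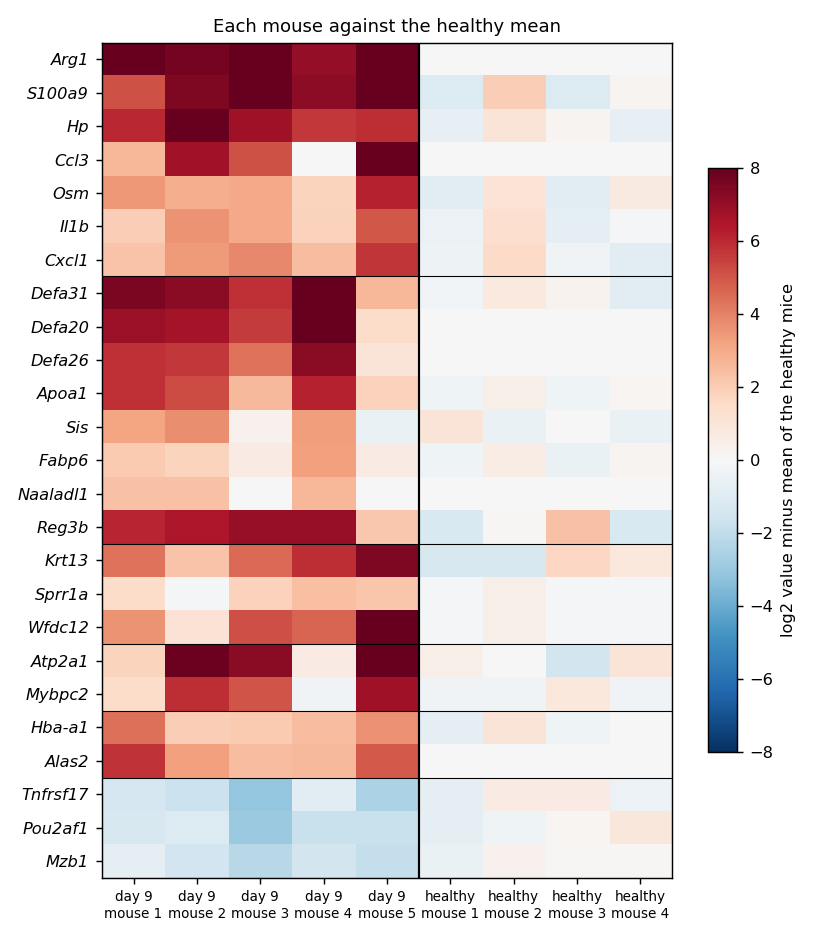
Log2 value of 25 genes in each of the 9 mice minus the mean of the healthy mice (day 9, left; healthy, right), with colours limited at 8 in either direction. From the top, the blocks are myeloid and cytokine genes, defensin, small-intestinal and Reg genes, squamous genes, skeletal muscle genes, erythrocyte genes and plasma cell genes. Defensin genes are palest in day 9 mouse 5, skeletal muscle genes are dark in mice 2, 3 and 5, and plasma cell genes are blue in all 5.

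Markers of tissues outside the colon mucosa differed between day 9 mice. All 18 tested skeletal muscle genes were above background in mice 2, 3 and 5, against 7 and 6 in mice 1 and 4 and 5 to 7 in healthy mice, and 2 passed the test, the calcium pump gene Atp2a1 (5.21, adjusted p = 0.037) and Mybpc2 (at least 2.36-fold, adjusted p = 0.050). Squamous epithelium, which lines the anal canal next to the distal colon, had 21 and 18 of 23 genes above background in mice 5 and 4, 10 or 11 in mice 1 to 3 and 6 to 10 in healthy mice. Krt13, a keratin gene of inner squamous linings, had 7.90, 5.84, 8.09, 9.47 and 11.07 in day 9 mice, against 2.32, 2.32, 5.24 and 4.41 in healthy mice (log2 change 4.90, adjusted p = 0.0062), with no overlap. Sprr1a, a cornified envelope gene that wound epithelium also uses, rose by 1.54 (adjusted p = 0.035), and these were the 2 of 23 past the test, with a median of 1.54. Krt13 was 7.84 ± 0.70 on day 16 and 8.61 ± 0.51 on day 23 (SD, n = 5 each). The list averaged 4.66 to 4.91 and 4.76 to 5.11 in the mice of those days. On day 14 Krt13 was 5.97 ± 2.76, with a highest value of 10.83. The list averaged 8.34 in day 14 mouse 4 and 4.48 to 4.78 in the other mice of that day. Wfdc12, a protease inhibitor gene, had 6.06, 3.64, 7.64, 7.10 and 11.43 in day 9 mice, against 2.32, 2.92, 2.32 and 2.32 in healthy mice, at least 5.64-fold higher (adjusted p = 0.029). It was highest in mouse 5, as were 105 of the 230 named probes that rose. Erythrocyte genes rose in 3 of 5 cases. Hba-a1, a haemoglobin alpha gene, had 14.10, 11.70, 11.82, 12.16 and 13.35 in day 9 mice, against 9.01, 10.72, 9.38 and 9.75 in healthy mice (log2 change 2.91, adjusted p = 0.0024), and the haem synthesis gene Alas2 was at least 2.74-fold higher (adjusted p = 0.0024). In the fit without the arrays with skeletal muscle markers Krt13, Hba-a1 and Alas2 held, and Atp2a1 (adjusted p = 0.39), Mybpc2 (adjusted p = 0.64) and Wfdc12 (adjusted p = 0.12) did not. The part of these tissues, or of blood, in the results for other genes was not tested.

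Plasma cell genes were among those that fell. Of 16 tested genes of B cells and plasma cells 3 fell and none rose, with a median of -0.90 (-0.77 with bounds). Tnfrsf17, the survival receptor BCMA of plasma cells, had 4.65, 4.27, 2.89, 5.12 and 3.48 in day 9 mice, against 5.18, 6.63, 6.62 and 5.50 in healthy mice (log2 change -1.90, SE 0.39, adjusted p = 0.0090). Pou2af1, a B cell transcription coactivator, had 7.51, 7.68, 5.82, 6.99 and 7.01 in day 9 mice, against 8.07, 8.41, 8.92 and 9.69 in healthy mice (log2 change -1.77, adjusted p = 0.044). Mzb1, a chaperone of antibody assembly, had 9.62, 8.82, 8.13, 8.85 and 8.42 in day 9 mice, against 9.79, 10.68, 10.42 and 10.41 in healthy mice (log2 change -1.56, adjusted p = 0.045). No day 9 mouse reached the healthy range of any of the 3. Jchain, the joining chain of IgA, had -1.80 (adjusted p = 0.053), while the secretory factor Xbp1, which epithelium also makes, had -0.06. All 3 calls were lost without the arrays with skeletal muscle markers, with log2 changes of -1.09 to -1.52 and adjusted p of 0.21 to 0.41. The MHC class II and dendritic cell list had 0 of 15 genes past limma's adjusted test (2 at an unadjusted p under 0.05) and a median of -0.63, led by Cd74 (-1.51, adjusted p = 0.28) and H2-Ab1 (-1.32, adjusted p = 0.35). T cell and intraepithelial lymphocyte genes had 0 of 20 past it (4 unadjusted) and a median of -0.35.

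Epithelial and metabolic genes that fell did so by smaller amounts. Slc26a2, the sulphate transporter of colonocytes, had 6.60, 7.57, 7.11, 7.10 and 6.59 in day 9 mice, against 8.79, 7.83, 8.14 and 8.38 in healthy mice (log2 change -1.29, SE 0.23, adjusted p = 0.0027), with no overlap. It was the only 1 of 22 colonocyte genes past the test (median -0.24), beside the chloride exchanger Slc26a3, with -1.90 and an adjusted p of 0.20, and the water channel Aqp8, with -0.57 and 0.13. Trpm6, a magnesium channel gene of colon and kidney, fell by 1.25 (adjusted p = 0.034). Of 24 xenobiotic metabolism genes 2 fell, Cyp3a13 (-1.03, adjusted p = 0.0058) and Gstm1 (-0.73, adjusted p = 0.021), and none rose (median -0.57). Ppargc1a, a coactivator of mitochondrial genes, fell by 0.92 (adjusted p = 0.022), whereas oxidative phosphorylation genes had 0 of 21 past limma's adjusted test (2 at an unadjusted p under 0.05) and a median of -0.079. Edn1, which encodes the vessel-constricting peptide endothelin-1, fell by 1.18 (adjusted p = 0.049), with healthy mouse 2 at 9.86 inside the day 9 range. It was the 1 of 18 tested endothelial genes past the test. Of those 18, 15 had a positive change, and the list median was 0.25. Cyp3a13 held without the arrays with skeletal muscle markers (adjusted p = 0.018), but Trpm6 and Gstm1 (adjusted p = 0.081 for both), Ppargc1a (0.15) and Edn1 (0.16) did not. Smooth muscle genes had 0 of 15 past it (4 unadjusted) and a median of -0.48, and replication and mitosis genes 0 of 19 (3 unadjusted) and 0.036.

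Among the genes that fell, Srp54a and Bbc3 did so evenly across the mice. Srp54a, a signal recognition particle gene, had 7.21, 6.97, 6.93, 7.16 and 6.91 in day 9 mice, against 8.14, 7.82, 8.19 and 8.25 in healthy mice (log2 change -1.06, SE 0.16, adjusted p = 4.9e-04). Bbc3, the p53 target PUMA that promotes apoptosis, had 6.73, 6.71, 6.39, 6.47 and 6.86 in day 9 mice, against 8.16, 7.70, 7.59 and 7.61 in healthy mice (log2 change -1.14, SE 0.20, adjusted p = 0.0024). Cited2, a transcription cofactor that restrains hypoxia signalling, fell by 1.25 (adjusted p = 0.022). Its spread was wider, with an SD of 0.38 at day 9 and 0.39 in healthy mice. These 3 and Slc26a2 remained past the test without the arrays with skeletal muscle markers, with adjusted p of 0.017 to 0.042. Cited2 did not pass it with mice 2, 3 and 5 as the only day 9 mice (-1.035, adjusted p = 0.13). The other non-overlapping genes with the largest falls were Prss23 (-1.20, adjusted p = 0.046), Mid2 (-1.12, 0.027), Sparcl1 (-1.05, 0.0090) and Shisa2 (-1.05, 0.018). A further 2 were above background in no day 9 mouse, Cntd1 (at least 1.13-fold lower, above background in 2 healthy mice) and Olfr978 (in none, so no fold is given). Without the arrays with skeletal muscle markers Sparcl1 (adjusted p = 0.026) and Shisa2 (0.033) held. Prss23 (0.27), Mid2 (0.26), Cntd1 (0.070) and Olfr978 (0.19) did not. Shisa2 did not hold with mice 2, 3 and 5 as the only day 9 mice (adjusted p = 0.10).

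Stress and damage genes gave smaller sets. Of 22 oxidant and antioxidant genes 4 rose and 1 fell. The haem oxygenase gene Hmox1 had 6.83, 6.28, 8.64, 6.02 and 6.68 in day 9 mice, against 4.90, 4.89, 5.41 and 4.67 in healthy mice (log2 change 1.92, adjusted p = 0.034). The metallothionein gene Mt1 rose by 1.39 (adjusted p = 0.0098), and both genes were highest in mouse 3. The glutathione peroxidase genes Gpx3 and Gpx2 rose by 1.09 (adjusted p = 0.015) and 0.87 (adjusted p = 0.014), and the oxidase activator Noxa1 fell by 0.56 (adjusted p = 0.038). Of 18 hypoxia and glycolysis genes Egln3, an oxygen sensor (0.99, adjusted p = 0.028), and Ndrg1 (0.70, adjusted p = 0.022) rose. Ier3 was the 1 of 14 immediate early genes to rise (1.70, adjusted p = 0.0051), Cldn4 the 1 of 14 tight junction genes (1.15, adjusted p = 0.048), and Cd44, a hyaluronan receptor, the 1 of 13 crypt genes (0.78, adjusted p = 0.025). Complement and coagulation genes gave 2 of 18, the coagulation factor gene F13a1 (1.27, adjusted p = 0.029) and the complement brake Cd55 (0.87, adjusted p = 0.017). A second probe did not pass the test for Bbc3, Cd44, Egln3, Tbxas1, Ccl4 (log2 change 2.32), Reg3b (0.34), Cntd1 (0.09), Gstm1 (0.03) and Osm (-0.06). The clock repressor genes Nfil3 (1.27, adjusted p = 0.0051) and Bhlhe40 (0.52, adjusted p = 0.038) rose, 2 of 15 clock genes. Without the arrays with skeletal muscle markers Gpx2 (adjusted p = 0.0078), Egln3 (0.042) and Cd55 (0.043) held. The other calls of these lists were lost there, at adjusted p of 0.27 for Hmox1, 0.14 for Mt1, 0.26 for Gpx3, 0.10 for Noxa1, 0.092 for Ndrg1, 0.12 for Ier3, 0.19 for Cldn4, 0.085 for Cd44, 0.19 for F13a1, 0.070 for Nfil3 and 0.30 for Bhlhe40. Gpx2 (adjusted p = 0.090) and Egln3 (0.13) did not hold with mice 2, 3 and 5 as the only day 9 mice. No gene of the lists for enteric neurons and glia, enteroendocrine cells, cholesterol synthesis, ER stress, adipocytes, pancreatic acinar cells or skin and urogenital glands passed limma's adjusted test, with medians between -0.35 and 0.18 and 0 to 5 genes a list at an unadjusted p under 0.05.

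**Figure D4:**
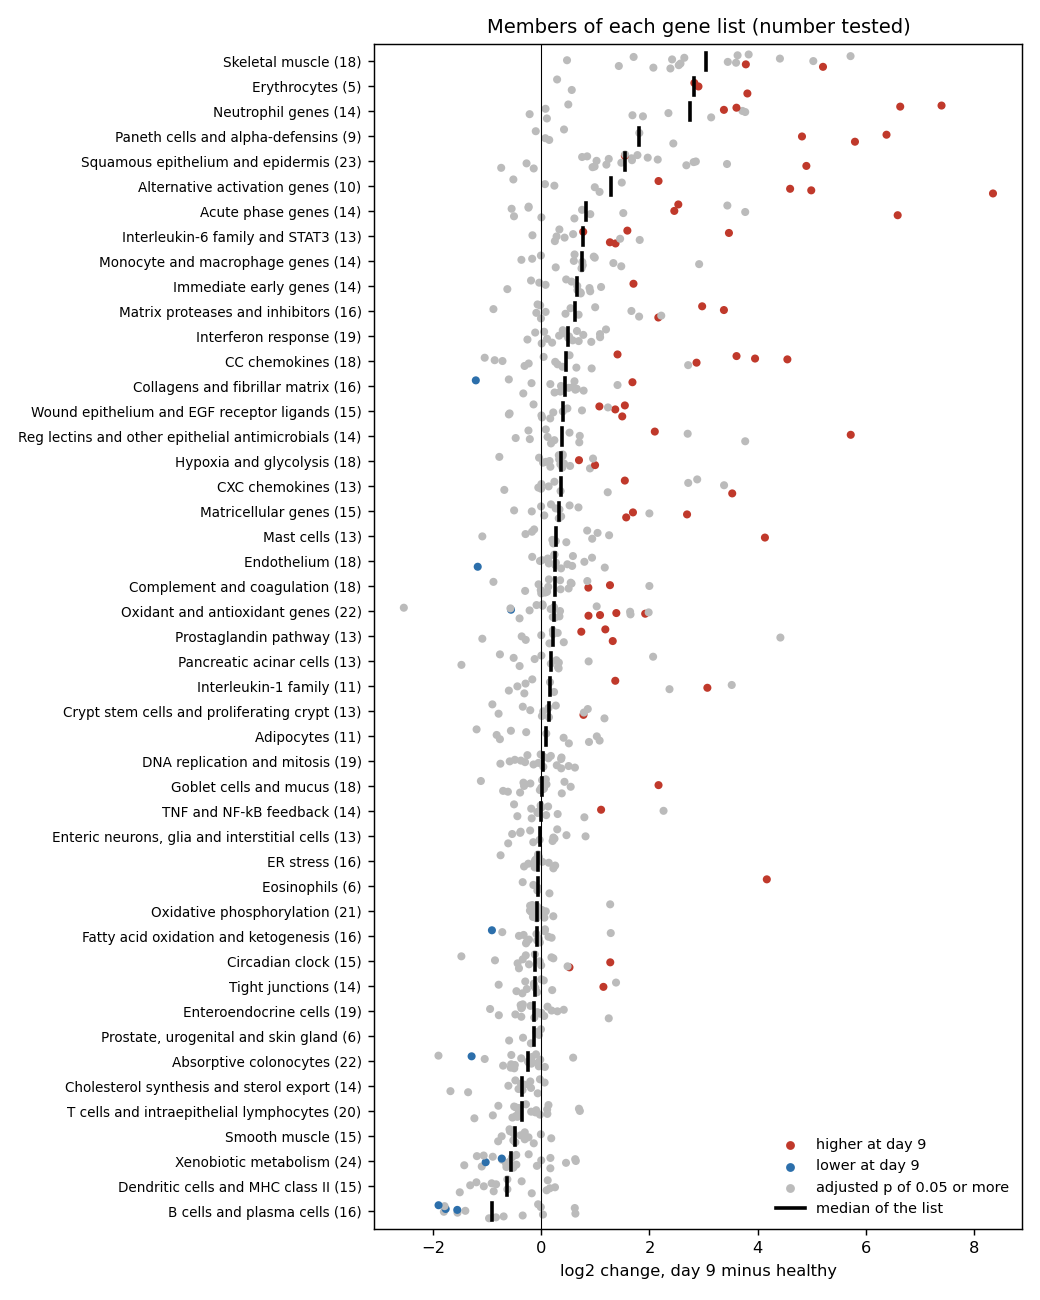
Log2 change (day 9 minus healthy) of each tested member of 47 gene lists, ordered by the list median (black bar), with red points higher, blue points lower and grey points not past the adjusted p of 0.05. Skeletal muscle, erythrocyte, neutrophil and Paneth cell lists have the highest medians (3.05, 2.83, 2.75 and 1.81 from fitted values) and the B cell and plasma cell list the lowest (-0.90). With bounds in place of fitted values for genes above background in no healthy mouse the order differs, at 2.11 for neutrophil, 1.89 for skeletal muscle, 1.81 for Paneth cell, 1.48 for squamous and 1.45 for erythrocyte genes.

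To separate the 2-day state from what was left of it a week after the same dose, day 9 was set against day 14. Against day 14, day 9 had 115 probes (0.545%) up and 40 (0.189%) down. Arg1 was 10.68 ± 1.05 on day 9 and 3.79 ± 2.76 on day 14 (SD, n = 5 each), where 1 of 5 mice was above background (log2 change 6.89, adjusted p = 2.4e-05). Hp was 9.54 ± 1.18 on day 9 and 4.51 ± 1.77 on day 14 (adjusted p = 0.0050), S100a9 was 10.81 ± 1.48 on day 9 and 4.55 ± 1.89 on day 14 (adjusted p = 0.014), and Reg3b was higher by 6.33 (adjusted p = 0.018). Neutrophil genes were higher in 3 of 14 cases, acute phase genes in 4 of 14 and CC chemokine genes in 5 of 18, and none of the 3 lists had a lower gene. Among those lower on day 9 were 4 of 16 B cell and plasma cell genes, with Tnfrsf17 at 4.08 ± 0.90 on day 9 and 6.24 ± 0.30 on day 14 (log2 change -2.16, adjusted p = 0.0026) and Jchain lower by 2.01 (adjusted p = 0.032). The MHC class II gene H2-Aa was also lower, by 2.02 (adjusted p = 0.024), as were the elastic fibre genes Mfap4 (-1.85, adjusted p = 1.9e-05) and Eln (-0.74, adjusted p = 0.018). Of 15 clock genes, 5 were higher and 1 was lower on day 9 than on day 14. Dbp, a clock output gene, was higher by 2.84 (adjusted p = 0.0097) and Arntl, a core activator, lower by 1.18 (adjusted p = 0.0065). The hour of death is not given in the sources used here, and its part was not tested.

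Days 16 and 23 share with day 9 the interval of 2 days after a dose, so they set the first challenge against the later ones. Day 9 had 10 probes (0.0474%) higher and 11 (0.0521%) lower than day 16, and 17 (0.0805%) higher and 24 (0.114%) lower than day 23. Arg1 and Hp were not among them. Arg1 was 10.68 ± 1.05 on day 9, 8.33 ± 0.97 on day 16 and 11.12 ± 1.10 on day 23 (SD, n = 5 each; adjusted p = 0.40 and 0.93 for day 9 against each). Hp was 9.54 ± 1.18 on day 9, 7.77 ± 0.86 on day 16 and 9.02 ± 1.43 on day 23 (adjusted p = 0.61 and 0.92).

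Day 23 mice 1 and 3 carried genes of pancreatic acinar cells, with all 13 above background and mean levels of 9.999 and 14.11, against 4.11 to 5.29 in day 9 mice and 4.64 to 5.65 in the other 3 day 23 mice. Mice 2 and 3 of day 21, which enter the shared spread, did so as well (13.17 and 11.31). In a fit without these 4 arrays, added once the values were known, day 9 differed from day 23 in 150 probes (35 higher, 115 lower), from day 16 in 28 and from day 14 in 300, and from healthy mice in 359 higher and 254 lower. The part of pancreatic tissue in the day 23 values was not tested.

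Defensin and small-intestinal genes were higher in part. Of 9 Paneth cell genes, 2 (Defa31 and Defa26) were higher and 1 (Mptx1) lower on day 9 than on day 16, and likewise against day 23. Defa20 differed by 3.55 from day 16 (adjusted p = 0.23) and by 3.12 from day 23 (adjusted p = 0.26). Of 17 small-intestinal genes, 2 were higher than on day 16 and 3 than on day 23, with none lower. Defa31 was 10.19 ± 2.31 on day 9, 2.57 ± 0.56 on day 16 and 3.09 ± 1.17 on day 23, at least 45.0-fold higher than on day 16 and higher than on day 23 by 7.10, and it was 2.48 ± 0.34 on day 14. Apoa1 was above background in 4 of 5 mice on day 9 and at the floor in all 10 mice of days 16 and 23, so it was at least 4.91-fold and 5.13-fold higher. Defa26, above background in no mouse of either day, was at least 5.45-fold higher than on day 16 (adjusted p = 0.0063) and 5.70-fold than on day 23 (adjusted p = 0.0028). Sis was higher than on day 16 (adjusted p = 0.017) and day 23 (adjusted p = 0.0099). Fabp6 was higher than on day 23 by 2.19 (adjusted p = 0.0013) and had 1.53 against day 16 (adjusted p = 0.11). The kinase gene Alpk3, known from heart and skeletal muscle, was at least 1.14-fold higher than on day 16 (adjusted p = 0.042).

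Mcpt1, the chymase of mucosal mast cells, had 6.09, 3.20, 4.47, 4.57 and 5.32 on day 9. It was 4.73 ± 1.08 on day 9, 8.57 ± 0.34 on day 14, 11.09 ± 0.49 on day 16 and 11.23 ± 1.93 on day 23 (SD, n = 5 each), and lower on day 9 by 3.84 (adjusted p = 0.0045), 6.36 and 6.50. Without the arrays with pancreatic markers it was lower than on day 23 by 7.76. Cpa3 was 4.54 ± 1.38 on day 9, 7.26 ± 0.080 on day 14, 8.96 ± 0.55 on day 16 and 9.67 ± 1.41 on day 23. Of 13 mast cell genes, 3 were lower on day 9 than on day 14, 4 than on day 16 and 6 than on day 23, among them Mcpt4, above background in no day 9 mouse and at least 13.8-fold lower than on day 16 and 13.4-fold than on day 23, the IgE receptor gene Fcer1a (-2.92 against day 16, adjusted p = 0.0012, and -3.40 against day 23, adjusted p = 7.9e-05) and Cma2 (at least 4.17-fold lower than on day 23, adjusted p = 0.0064). Hdc was 9.04 ± 1.27 on day 9, 6.28 ± 0.91 on day 14, 7.69 ± 0.74 on day 16 and 8.63 ± 0.93 on day 23, and was higher on day 9 than on day 14 (2.75, adjusted p = 0.022). Mptx1, a pentraxin gene of gut epithelium, was lower on day 9 than on day 14 (-2.92, adjusted p = 4.5e-04), day 16 (-2.63, adjusted p = 0.0023) and day 23 (-2.35, adjusted p = 0.0077). Mfap4 was lower than on day 16 as well (-1.21, adjusted p = 0.013). In limma fits of 2 groups alone, 13 probes differed between day 9 and day 16 and 0 between day 9 and day 23, where 1353 had an unadjusted p under 0.05.

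**Figure D5:**
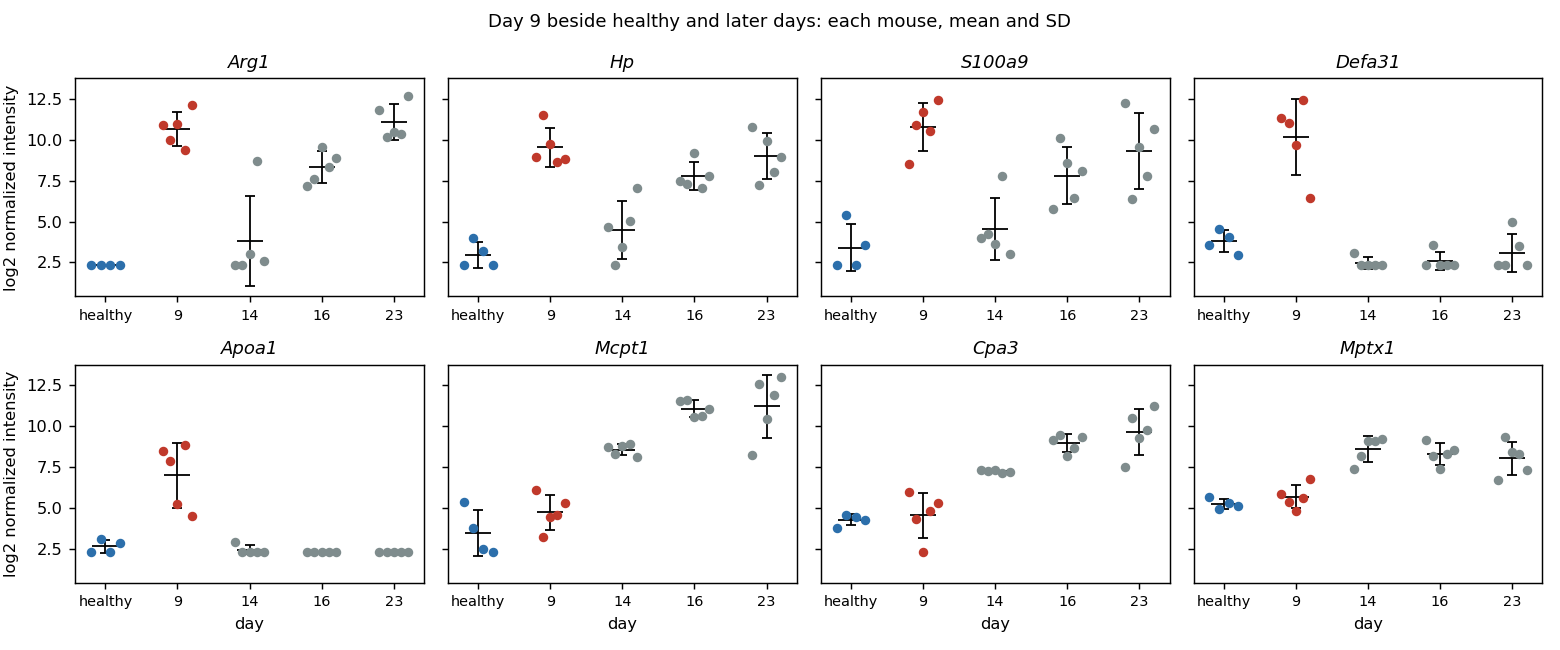
Log2 normalized intensity of 8 genes in each mouse (points) with mean and SD (black), for healthy mice (n = 4, blue), day 9 (red) and days 14, 16 and 23 (grey, n = 5 each). Defa31 and Apoa1 are high on day 9 alone of the days plotted, Arg1, Hp and S100a9 are high on days 9, 16 and 23, and Mcpt1, Cpa3 and Mptx1 are higher on each later day than on day 9.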

How the data were processed

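Distal colon RNA was hybridised by the authors to Illumina MouseRef-8 arrays, 1 per mouse, and scanner output was taken up in GenomeStudio, per the labels. The deposited log2 values analysed here were quantile-normalized by the authors in GeneSpring GX over 34 arrays of 7 groups (25697 probes), with array medians of 4.77 to 4.78. A further 68 deposited columns named by chip position could not be tied to mice and were not used, so chip and mouse cannot be related, and detection p-values were not used. Arrays carry no read depth; precision is limited by the 5 and 4 mice.

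Values under 5 were set to 5, and probes above 5 in at least 4 arrays were kept (21110). limma 3.58.1 (R 4.3.3) was fitted to all 34 arrays with 1 mean per group (27 residual degrees of freedom) and moderated by eBayes, and p-values were adjusted by Benjamini-Hochberg within each comparison at 0.05. The script was tested on simulated data. Gene names came from GEO's platform table (23978 probes with 1 symbol, none with several, 1719 unlisted), and a gene was represented by its probe with the highest mean. Where a probe was above background in no healthy mouse, the fold is a lower bound against the higher of the lowest signal above background and the probe's own value per array.

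Genes named are the 15 with the largest change in each direction among called probes whose groups did not overlap, up to 4 called members of each of 47 lists, genes that define a list or that the study's text names for acute responses, and the 5 leading genes in each direction of each comparison between days. The members, lists and comparisons were chosen with earlier results of these data known, and the small-intestinal list and the settings based on skeletal muscle or pancreatic markers and on background were added after seeing the data. Promoters are 250 bases before RefSeq starts (GRCm38.p6). Alternatives were other floors, filters, normalizations, fits, thresholds and each mouse left out.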

Additional observations from a re-analysis of the deposited data

Results flagged for a closer look

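In 92 named genes, 184 gene and group pairs of 4 or 5 mice were checked for 1 mouse far from the others by Dixon's criterion, and 19 passed it, 8 in day 9 mice and 11 in healthy mice. Chance gives about 1 in 20 for values without a floor, a rate that does not apply to floored values. Where all other mice of a group sat at the floor, any value over it passed by construction. That was so for Cntd1 in day 9 mice and for Chil3, Wfdc12, Mybpc2, Reg3g and Il6 in healthy mice, all below background. Day 9 mouse 5 was low for the antibacterial lectin genes Reg3b (5.72, with the other day 9 mice at 9.65 to 10.52) and Reg3g (2.32, with the others at 5.66 to 6.55). Day 9 mouse 1 was low for S100a8 (8.31). Day 9 mouse 3 was high for Chil1 (9.53), Mt1 (15.18) and Slpi (14.25) and low for Prss23 (3.92), and day 9 mouse 2 was above the floor for Cntd1 (2.45). Healthy mouse 2 was high for Sprr1a (6.94), Tnfaip2 (7.80), Chil3 (3.20) and Wfdc12 (2.92) and low for Edn1 (9.86). Healthy mouse 3 was high for Retnlb (13.10) and Mybpc2 (3.43). Healthy mouse 4 was high for Rnase2a (6.0), Reg3g (3.97) and Il6 (3.38) and low for Has1 (2.71).

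The change from healthy mice differed between day 9 and another day for the 5 leading genes in each direction, by limma's direct contrast of the days. These 30 cases were chosen by that same contrast, so their number was fixed by the choice. Against day 14 the difference on the log2 scale was 7.71 for Defa31, 6.89 for Arg1, 6.33 for Reg3b, 6.27 for S100a9 and 5.04 for Hp, and -3.84 for Mcpt1, -2.92 for Mptx1, -2.78 for Mcpt4, -2.72 for Cpa3 and -2.16 for Tnfrsf17. Against day 16 it was 7.62 for Defa31, 4.67 for Apoa1, 4.12 for Defa26, 2.52 for Sis and 1.94 for Alpk3, and -6.36 for Mcpt1, -5.12 for Mcpt4, -4.42 for Cpa3, -2.92 for Fcer1a and -2.63 for Mptx1. Against day 23 it was 7.10 for Defa31, 4.67 for Apoa1, 4.29 for Defa26, 2.55 for Sis and 2.19 for Fabp6, and -6.50 for Mcpt1, -5.13 for Cpa3, -5.07 for Mcpt4, -3.97 for Cma2 and -3.40 for Fcer1a. Where 1 side was above background in no mouse (Defa31 on days 14 and 16, Apoa1 and Defa26 on all 3 later days, Sis and Alpk3 on day 16, Sis on day 23, Mcpt4 and Cma2 on day 9), these fitted differences depend on the floor.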

How the results depend on the processing

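Of 85 named genes past the test, none reversed under any setting run, 4 (Arg1, Hp, Chil1 and Mmp9) passed it under all of them, and 37 passed it with each mouse left out. Probes higher than in healthy mice (251) numbered 153 with p-values adjusted over the 4 comparisons together, 19 in the fit of these groups alone, 28 when a change of at least 1.5-fold was tested and 96 without the arrays with skeletal muscle markers. Probes lower (172) numbered 77, 11, 1 and 58 under the same settings, 270 with a floor of 20, 265 among probes above background in at least 4 arrays and 99 with the day 9 mice that carry those markers alone. For day 14 (155 probes) the counts were 22 in the fit alone, 22 at 1.5-fold, 51 without those arrays and 300 without the 4 arrays with pancreatic markers. For day 16 (21) they were 47 with joint adjustment, 13 in the fit alone and 43 without those arrays. For day 23 (41) they were 77 with joint adjustment, 79 with a trended robust prior, 24 with probes averaged per gene, 63 without a floor and with 16 added, 63 among probes above background, 150 without the arrays with pancreatic markers, 18 at 1.5-fold and 0 in the fit alone, where limma gave 1353 probes at an unadjusted p under 0.05. The cause of these shifts was not tested.

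With 1 mouse left out, the counts ranged from 106 to 377 for probes higher, 54 to 314 for probes lower, 89 to 227 for day 14, 18 to 53 for day 16 and 40 to 183 for day 23. Probes higher moved by over 1.5 times without day 9 mouse 2 (377), 3 (151) or 5 (122) or healthy mouse 1 (106), 3 (139) or 4 (127), and probes lower without day 9 mouse 1 (96), 2 (314), 3 (102) or 5 (68) or healthy mouse 1 (54), 3 (69) or 4 (82). The day 14 count moved so without day 9 mouse 3 (89), the day 16 count without day 9 mouse 1 (51), 4 (53) or 5 (34), and the day 23 count without day 9 mouse 1 (89), 4 (64) or 5 (69) or day 23 mouse 1 (183).

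The mouse numbers of the groups mark no shared source, and the deviations of same-numbered day 9 and healthy mice correlated at -0.053, -0.075, 0.049 and -0.010. A replicate block on mouse number gave 220 probes up and 121 down against healthy mice, and 175, 27 and 51 probes for days 14, 16 and 23. The small groups, the many values near background and the unknown chip of each mouse limit all of these counts.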
